A study of Homo sapiens with 12 samples.

Results

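The genes described here are 9 neighbours of the oncogene MYCN on the short arm of chromosome 2 (band 2p24): DDX1, NBAS, FAM49A, MYCNOS, MYCNUT, TRIB2, VSNL1, GEN1 and SMC6. They were taken by symbol from a table of 58735 genes, and each symbol matched 1 row. The rule of choice was position near MYCN, but it was set with earlier results of these data known. RNA was sequenced from 12 libraries of human neuroblastoma cells, tumour cells of the developing sympathetic nervous system grown in culture, in 4 groups of 3 libraries. In the titles the groups are SK_N_SH_shNC, SK_N_SH_shL5, SK_N_BE2_shNC and SK_N_BE2_shL5; the shNC libraries have the genotype label WT and the shL5 libraries that of a TSPYL5 knockdown. All 12 have the treatment label None, and shNC and shL5 are read as a control hairpin and a hairpin against TSPYL5, from the genotype label. All labels of the first line give the name SK-N-SH. The other is SK_N_BE2 by title but SH-SY5Y by the line and source labels, and is named only as the second line below. SK-N-BE(2) is known as a MYCN-amplified line, and SK-N-SH and its subclone SH-SY5Y as lines without that amplification. The sources used here do not say whether a line was 1 clone or a pool after hairpin delivery, or whether replicates were separate cultures. A p-value therefore covers the spread of the libraries alone, and that spread may be technical.

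MYCN encodes a transcription factor of the MYC family that drives growth of neuroblasts. In a subset of neuroblastomas the stretch of 2p24 that holds it is present in many copies, and genes inside the copied stretch are gained with it. How far the stretch reaches differs between tumours and lines, and DDX1 and NBAS are known to be inside it in some of them. DNA copies were not measured in these libraries, so the question put to the data is which neighbours share the pattern of MYCN across the 4 groups at the level of RNA.

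Distances here and below run from the left end (lower coordinate) of a gene to that of MYCN, whatever the strand. In order along the chromosome, on GRCh38, the left end of TRIB2 lies 3.22 Mb before the start of MYCN, that of NBAS 774 kb and that of DDX1 349 kb before it. MYCNUT starts 20.2 kb and the left end of MYCNOS lies 19.5 kb before it. On the other side the left end of FAM49A lies 609 kb, that of VSNL1 1.60 Mb, that of SMC6 1.72 Mb and that of GEN1 1.81 Mb after it. NBAS, FAM49A and SMC6 are on the minus strand, so they start at their right ends, at 15561330, 16666331 and 17800242. MYCN is on the plus strand from 15940564 to 15947007 (ENSG00000134323). MYCNOS is an antisense gene on the minus strand from 15921037 to 15942249 (ENSG00000233718) that overlaps the start of MYCN head to head, and 98 of its 2413 exonic bases (4.06%) are also exonic in MYCN. GEN1 (17753858 to 17788941, plus strand, ENSG00000178295) lies within the span of SMC6 (17663812 to 17800242, minus strand, ENSG00000163029), and 107 of its 11827 exonic bases are shared. No source used here gives the strand setting of the counting, and reads in these shared stretches cannot be told apart.

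RefSeq promoter windows on GRCh38.p14, 250 bases before to 50 after an annotated start, were matched by symbol for 8 of the 9 members (11 windows), all but FAM49A. The 5 shown are of MYCN, MYCNOS, DDX1, GEN1 and SMC6. MYCN and MYCNOS were high in the same 6 libraries, and DDX1 is the member nearest to them with reads in every library. GEN1 and SMC6 moved together, and in the windows shown they start 59 bases apart on opposite strands. GEN1 has a second window, with its start at 17754138, and MYCNOS has a second one too, and neither is shown. In the coordinates used for counting, SMC6 starts at 17800242 on the minus strand, beyond GEN1. In the first 3 sequences the single capital is the annotated first transcribed base. In the GEN1 and SMC6 sequences the capitals are the 158 bases that both windows hold, read on opposite strands. MYCN is chr2:15940300-15940599, plus strand; MYCNOS is chr2:15941636-15941935, minus strand; DDX1 is chr2:15591618-15591917, plus strand; GEN1 is chr2:17753619-17753918, plus strand; SMC6 is chr2:17753761-17754060, minus strand.
MYCN: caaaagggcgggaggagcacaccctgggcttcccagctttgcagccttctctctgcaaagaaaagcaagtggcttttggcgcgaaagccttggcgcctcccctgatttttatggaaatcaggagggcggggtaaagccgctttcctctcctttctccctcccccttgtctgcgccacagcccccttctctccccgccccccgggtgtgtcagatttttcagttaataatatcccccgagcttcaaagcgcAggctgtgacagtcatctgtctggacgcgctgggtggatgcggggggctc
MYCNOS: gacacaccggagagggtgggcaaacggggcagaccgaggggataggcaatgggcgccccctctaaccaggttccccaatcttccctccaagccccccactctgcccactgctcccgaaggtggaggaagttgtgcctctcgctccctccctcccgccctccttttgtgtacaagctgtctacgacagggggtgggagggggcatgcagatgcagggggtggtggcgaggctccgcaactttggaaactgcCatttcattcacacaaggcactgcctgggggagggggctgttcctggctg
DDX1: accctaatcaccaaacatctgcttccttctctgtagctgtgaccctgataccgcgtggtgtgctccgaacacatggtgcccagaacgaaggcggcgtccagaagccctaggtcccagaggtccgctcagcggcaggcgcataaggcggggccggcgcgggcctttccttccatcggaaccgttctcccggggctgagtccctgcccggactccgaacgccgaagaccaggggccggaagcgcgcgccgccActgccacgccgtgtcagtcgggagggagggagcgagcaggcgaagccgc
GEN1: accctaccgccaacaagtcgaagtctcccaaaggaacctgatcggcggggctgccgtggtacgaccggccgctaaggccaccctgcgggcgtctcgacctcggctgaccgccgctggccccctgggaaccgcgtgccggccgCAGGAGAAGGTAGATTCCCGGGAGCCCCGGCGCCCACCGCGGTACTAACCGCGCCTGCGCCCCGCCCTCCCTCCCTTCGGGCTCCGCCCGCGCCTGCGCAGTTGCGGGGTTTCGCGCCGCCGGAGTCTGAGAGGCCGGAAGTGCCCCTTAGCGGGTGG
SMC6: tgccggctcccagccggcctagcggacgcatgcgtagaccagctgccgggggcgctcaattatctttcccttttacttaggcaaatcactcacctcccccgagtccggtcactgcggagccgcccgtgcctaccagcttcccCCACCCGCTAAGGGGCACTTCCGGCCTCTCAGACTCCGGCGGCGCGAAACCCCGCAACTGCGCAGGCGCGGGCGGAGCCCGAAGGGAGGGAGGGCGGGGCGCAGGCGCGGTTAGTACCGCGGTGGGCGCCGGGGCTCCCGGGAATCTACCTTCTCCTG
The canonical E-box of MYC family dimers, CACGTG, which reads the same on both strands, was in 0 of the 11 member windows, was absent from the MYCN window, and was in 7.26% of all 35116 windows of the table. This says only that these letters are not in these windows.

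Whole reads recovered from the deposited FPKM (fragments per length of gene and depth of library) came to 15425460 to 19249018 per library. TSPYL5, the gene the hairpin is named for, was 1.38-fold higher in the SK-N-SH libraries with the knockdown label than in their controls (17.7 ± 0.629 against 12.9 ± 0.649 FPKM, mean ± SD, n = 3) and 1.94-fold lower in those labelled second line knockdown (12.8 ± 0.474 against 24.7 ± 0.918). It thus went against the label in SK-N-SH, and all groups are named by their labels only. The 9 noradrenergic neuroblast markers summed here, TH among them, came to 938 to 993 FPKM in SK-N-SH knockdown and 1070 to 1111 in second line control, against 119.5 to 137.8 in SK-N-SH control and 97.3 to 126 in second line knockdown, where 1 and 2 of them had no reads. Of the 9, 8 were higher and 1 lower in SK-N-SH knockdown, and 8 were lower and 0 higher in second line knockdown. The exception was TBX2, at 28.5 ± 0.325 FPKM in SK-N-SH knockdown against 41.9 ± 4.23 in its control. The 9 mesenchymal markers, PRRX1 and COL1A1 among them, summed to 263 to 269 and 244 to 264 FPKM in those high-MYCN groups against 2366 to 2701 and 1798 to 2056 in the others. Of these 9, 7 were lower and 1 higher in SK-N-SH knockdown, and 8 were higher and 1 lower in second line knockdown. TWIST1 went with MYCN, at 126 ± 2.18 against 73.0 ± 5.11 FPKM in SK-N-SH and 134 ± 5.67 against 46.9 ± 9.81 in the second line, and SNAI2 did not pass in SK-N-SH. The 5 epithelial markers summed to 19.8 to 25.2 FPKM in the SK-N-SH controls and 23.9 to 29.6 in second line knockdown, against 0.957 to 1.29 in SK-N-SH knockdown and 0.982 to 1.78 in second line control. That sum was mostly the keratin gene KRT18 (17.3 ± 2.96 FPKM in the SK-N-SH controls, 0.0591 ± 0.0540 in SK-N-SH knockdown) and KRT8, while EPCAM went the other way. Schwann markers and blood and endothelial markers summed to at most 1.83 and 1.28 FPKM in any library. This division of marker genes runs between the same groups as the level of MYCN does, and its part in the results below was not tested. In these bulk libraries fewer cells with a transcript and less of it per cell cannot be told apart.

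MYCN itself set the pattern. Its level was 988, 1013 and 1082 FPKM in the 3 SK-N-SH knockdown libraries and 1043, 1072 and 1006 in the 3 second line controls. In SK-N-SH control it was 0, 0.0813 and 0.0411 FPKM, which is 6 reads in all, and in second line knockdown all 3 libraries had 0 reads, a group in which 3 reads would come to 0.0218 FPKM. It was thus at least 47683-fold higher in second line control than in second line knockdown, and 25185-fold higher in SK-N-SH knockdown than in its control. The groups do not overlap, and the high groups did not differ beyond their spread (log2 difference -0.02, SE 0.05, limma adjusted p = 0.919).

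**Figure D1:**
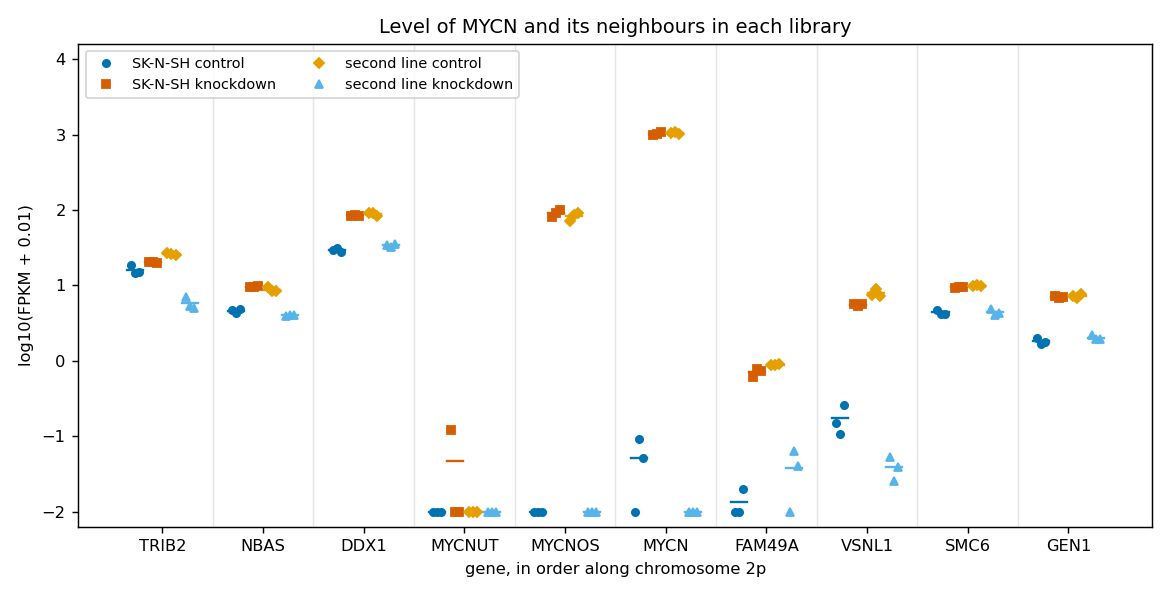
Level of MYCN and the 9 neighbours in each library, as log10(FPKM + 0.01), with genes in chromosomal order and horizontal bars at the group means (n = 3). MYCN, MYCNOS, FAM49A and VSNL1 are far lower in SK-N-SH control and second line knockdown than in the other groups, while DDX1, NBAS, SMC6, GEN1 and TRIB2 are read in every library.

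Of the 9 members 7 had a mean of at least 0.5 FPKM over the 12 libraries and were tested with limma on log2(FPKM + 1). All 7 were higher in SK-N-SH knockdown than in its control. Of all 15856 genes tested 79.8% passed in that comparison, 40.7% higher and 39.0% lower. All 7 were lower in second line knockdown than in its control, where 80.0% of all genes passed, 39.9% higher and 40.2% lower. The difference of the effects between the lines passed for all 7, in the lower direction, and for 84.9% of all genes, 41.8% higher and 43.1% lower. Both at once, the direction of MYCN, held for 5558 genes or 35.1% of those tested. A ratio of mean FPKM of at least 10 in both lines, called near on/off here, held for 2 of the 7, MYCNOS and VSNL1, and for 5.23% of all genes tested. FAM49A and MYCNUT lay under the filter on low values. A member that is silent in 2 groups passes that filter only through the groups where it is high, so these counts describe the members and support nothing beyond that. Where groups are said not to overlap, the share of all genes that do the same is not given. With 79.8% and 80.0% of all genes passing, a lack of overlap is not taken as particular to a member.

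MYCNOS was the member closest to MYCN in its pattern. It is transcribed from the opposite strand and is known both as a noncoding RNA and as the source of the NCYM protein. Its level was 80.0, 92.0 and 100.3 FPKM in SK-N-SH knockdown and 71.3, 86.6 and 92.2 in second line control. It had 0 reads in all 6 libraries of SK-N-SH control and second line knockdown, groups in which 3 reads would come to 0.0221 and 0.0235 FPKM. The high groups overlap each other and are far from the others. By those floors it was at least 4106-fold higher in SK-N-SH knockdown than in its control (limma adjusted p = 1.10e-13), and at least 3545-fold lower in second line knockdown than in its control (adjusted p = 1.21e-13). Per length it stood at 6.84% to 9.27% of the level of MYCN in the 6 libraries that had both. Only 23.4% of its exonic bases lie within the span of MYCN, but without strand its reads there cannot be told from reads of MYCN introns or exons.

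MYCNUT, a long intergenic RNA named for its place upstream of MYCN, did not share the pattern at this depth. It had 2 reads in 1 library, SK-N-SH knockdown replicate 1 (0.109 FPKM), and 0 reads in the other 11. A count of 0 over a group allows up to 0.0513 to 0.0569 FPKM, so a level under that was not detectable. It starts within 1 kb of the left end of MYCNOS, which had 11061 and 10199 reads in the groups with high MYCN.

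FAM49A, now also named CYRIA, encodes a protein that binds the GTPase RAC1 and restrains actin branching through the WAVE complex. It was low where MYCN was high and nearly unread elsewhere. It had 57, 73 and 61 reads in SK-N-SH knockdown (0.594, 0.770 and 0.713 FPKM) and 81, 81 and 82 in second line control (0.870, 0.871 and 0.908 FPKM). It had 0, 0 and 1 reads in SK-N-SH control, and 0, 5 and 3 in second line knockdown. The groups do not overlap within either line. The ratio of means was 212 in SK-N-SH, with an exact 95% interval of 37.6 to 8410 for counting error, since it rests on 1 read, and there was no read left without SK-N-SH control replicate 3. It was 31.2 in the second line (interval 15.9 to 74.4, on 8 reads), 57.5 without second line knockdown replicate 2 and 20.8 without replicate 1. With no filter on low values its differences passed in both lines (limma adjusted p = 5.04e-07 and 1.47e-07). Even where it was read, its level stayed under 1 FPKM, beside 988 FPKM or more for MYCN in the same libraries.

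VSNL1, which encodes a calcium sensor of neurons, visinin-like 1, was near on/off although it lies farther from MYCN than FAM49A. Its level was 5.64, 5.31 and 5.67 FPKM in SK-N-SH knockdown and 0.140, 0.0966 and 0.251 in SK-N-SH control. In the second line it was 7.52, 8.82 and 7.29 FPKM in control and 0.0434, 0.0154 and 0.0291 in knockdown. No library of a high group came near a low one. The ratios of means were 34.1 in SK-N-SH (limma adjusted p = 5.16e-11) and 269 in the second line (adjusted p = 6.81e-12), the latter resting on 6 reads in the 3 knockdown libraries. VSNL1 was also the 1 tested member that differed between the groups with high MYCN. It was 1.42-fold lower in SK-N-SH knockdown than in second line control (log2 difference -0.44, SE 0.07, adjusted p = 0.00628, while 5.39% of all genes passed in that comparison, 2.26% higher and 3.12% lower). With a pseudocount of 0.1 this difference did not pass (adjusted p = 0.199).

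DDX1, NBAS, SMC6 and GEN1 were read in all 12 libraries and differed by much smaller factors. DDX1, a DEAD-box RNA helicase of the tRNA ligase complex and the neighbour most often named as gained with MYCN, was at 83.5, 85.4 and 84.3 FPKM in SK-N-SH knockdown and 29.6, 30.9 and 28.0 in SK-N-SH control. In the second line it was at 90.1, 90.5 and 83.4 FPKM in control and 34.5, 31.9 and 35.3 in knockdown. Every library of the MYCN-high groups was above every other library. The differences were 2.86-fold in SK-N-SH (log2 difference 1.49, SE 0.05, limma adjusted p = 2.32e-10) and 2.59-fold in the second line (log2 difference -1.35, SE 0.05, adjusted p = 4.89e-10).

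NBAS, which encodes a subunit of a complex that tethers vesicles returning to the endoplasmic reticulum, was at 9.47, 9.41 and 9.73 FPKM in SK-N-SH knockdown and 4.72, 4.36 and 4.79 in its control. It was at 9.59, 8.41 and 8.34 FPKM in second line control and 3.88, 4.09 and 4.10 in second line knockdown. Within each line the groups stood clear of each other, by 2.06-fold in SK-N-SH (adjusted p = 2.71e-08) and 2.18-fold in the second line (adjusted p = 1.54e-08). NBAS and DDX1 lie next to each other, yet the ratio of their levels was not constant. DDX1 was 5.85 to 7.10 times the level of NBAS in SK-N-SH control and 8.67 to 9.07 times in SK-N-SH knockdown, and 9.39 to 10.7 times in second line control and 7.82 to 8.89 times in second line knockdown.

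SMC6 and GEN1 act in DNA repair: SMC6 is a core subunit of the SMC5/6 complex, and GEN1 is a nuclease that cuts Holliday junctions. SMC6 was at 9.32, 9.54 and 9.46 FPKM in SK-N-SH knockdown against 4.76, 4.12 and 4.2 in its control, and at 9.84, 10.1 and 9.77 in second line control against 4.88, 3.98 and 4.32 in second line knockdown. That is 2.16-fold (limma adjusted p = 5.47e-08) and 2.26-fold (adjusted p = 3.12e-08). GEN1 was at 7.26, 6.73 and 6.92 FPKM in SK-N-SH knockdown against 1.98, 1.68 and 1.77 in its control, and at 7.26, 6.74 and 7.71 in second line control against 2.19, 1.93 and 1.95 in second line knockdown. That is 3.85-fold (adjusted p = 8.29e-10) and 3.58-fold (adjusted p = 1.09e-09). Groups within a line did not overlap for either gene. The windows shown above for the 2 genes overlap, yet GEN1 stood at 0.665 to 0.789 of the level of SMC6 in the 6 libraries with high MYCN and at 0.408 to 0.485 in the other 6.

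TRIB2, a pseudokinase that guides proteins to the ubiquitin ligase COP1, lay farthest from MYCN and followed it least. It was at 20.5, 20.5 and 19.7 FPKM in SK-N-SH knockdown and 18.7, 14.4 and 14.8 in SK-N-SH control, a 1.27-fold difference (log2 difference 0.33, SE 0.11, limma adjusted p = 0.0139). That call was lost without SK-N-SH control replicate 2 (adjusted p = 0.0585) or replicate 3 (adjusted p = 0.0524), and the adjusted p ran from 0.00122 to 0.0585 over the alternatives. In the second line it was at 26.8, 26.3 and 25.4 FPKM in control and 6.95, 5.39 and 5.03 in knockdown, a 4.52-fold difference (adjusted p = 6.84e-09). Each group stood clear of the others, and the lowest levels by far were in second line knockdown, while SK-N-SH control, with almost no MYCN, had 14.4 FPKM or more.

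**Figure D2:**
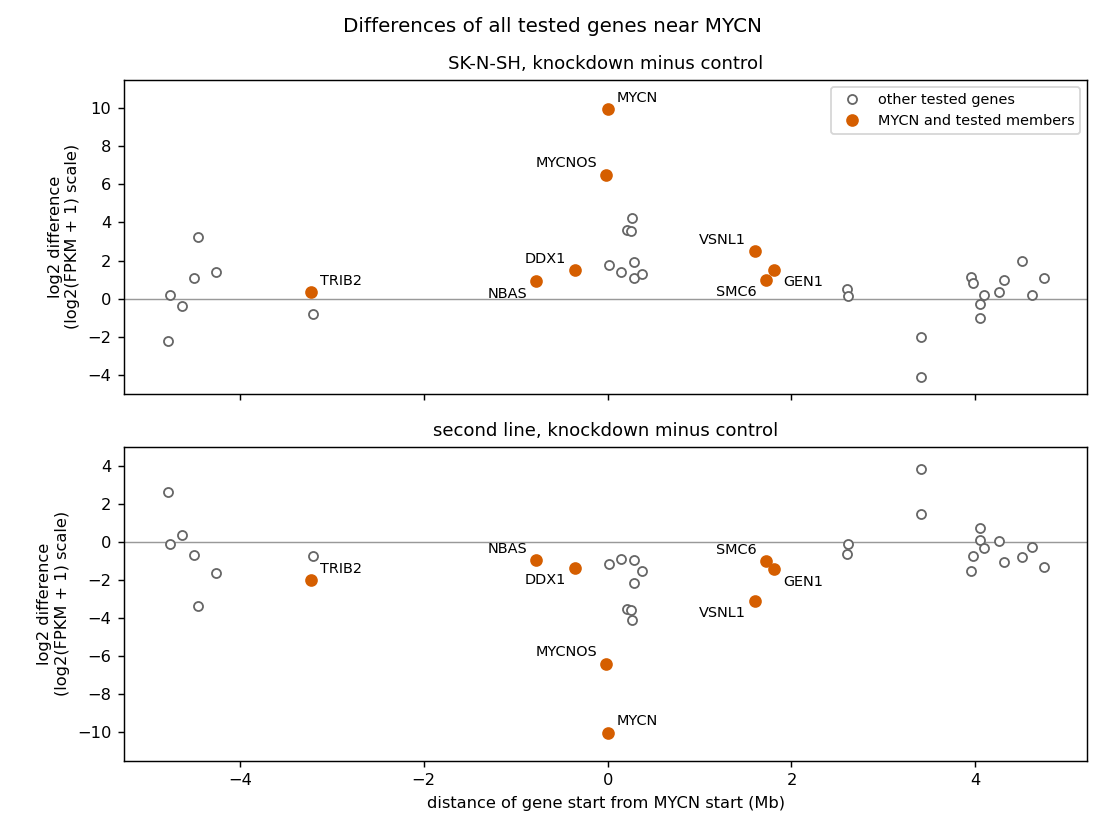
Log2 difference, knockdown minus control on the log2(FPKM + 1) scale, of the 37 tested genes within 5 Mb of MYCN against the distance of their left ends (gene start on the axis), for SK-N-SH (top) and the second line (bottom). Filled points are MYCN and the tested members, open points the other tested genes. The size of the difference does not fall steadily with distance: VSNL1 at 1.60 Mb exceeds DDX1 and NBAS, which are nearer.

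Among MYCN and the 7 tested members, ordering by ratio in SK-N-SH gives MYCN, MYCNOS, VSNL1, GEN1, DDX1, SMC6, NBAS and TRIB2. In that order SMC6 (2.16) and NBAS (2.06) are neighbours whose log2 differences, 0.96 and 0.91 with SEs of 0.06 and 0.06, lie within their errors. GEN1 and DDX1 are also close on that scale (1.5 and 1.49), though GEN1 has the larger ratio of FPKM, because the pseudocount of 1 weighs more on its lower level. Ranked by the smaller of the ratios of the 2 lines among the 5558 genes that moved as MYCN did, MYCN was at place 1 and MYCNOS at place 4. VSNL1 was at place 540, GEN1 1393, DDX1 1963, SMC6 2417, NBAS 2590 and TRIB2 4994. The genes most like MYCN by this measure, other than MYCNOS, were MEG3, an imprinted noncoding RNA gene of chromosome 14, TH, which encodes the rate-limiting enzyme of catecholamine synthesis, FXYD6, a regulator of the sodium pump, and SEMA6D, a semaphorin. None of these 4 is on chromosome 2. Their levels in SK-N-SH knockdown were 45.8 ± 7.80, 108 ± 5.31, 26.9 ± 1.58 and 12.5 ± 0.513 FPKM.

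Pearson's r of log2(FPKM + 1) with MYCN over the 12 libraries, given as a description because the libraries form separate clusters, was 0.999 for MYCNOS, 0.995 for GEN1, 0.992 for DDX1 and VSNL1, 0.991 for SMC6, 0.984 for NBAS and 0.763 for TRIB2. A value of at least 0.9 was reached by 4212 of the other 15855 tested genes, so high values are common across these groups. The genes most like each member by the same measure were nearly all on other chromosomes. They were MTREX, an RNA helicase of chromosome 5, and KLHL23 of chromosome 2 for DDX1 (r = 0.999 for both), EFNA2 and ATP7A for NBAS (0.997 and 0.996), and IGSF9 and DAPK1 for MYCNOS (1.0 for both, rounded). For VSNL1 they were SEPTIN5, whose symbol is entered as a date in the table, and SCML2, and for SMC6 SAAL1 and SAPCD2. For GEN1 they were FAM72B, which has near-identical copies that make its level uncertain, and POLDIP3, and for TRIB2 NES, which encodes nestin, and IL11RA (0.986 and 0.980).

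The genes around MYCN that are not on the member list show where along the chromosome reads differed between groups. The table holds 30 genes whose left end lies within 1 Mb of that of MYCN, MYCN included, and 8 of them had no read in any library. Between DDX1 and MYCNUT lie 6 genes, all without reads. Between MYCN and FAM49A lie 14 genes, of which 11 had at least 20 reads over the 12 libraries. Of these 11, 10 had 0 reads in all 6 libraries of SK-N-SH control and second line knockdown, and the other, AC010745.2, had 1. Within 1 Mb as a whole 12 of the 17 genes with at least 20 reads had 0 reads in those 6 libraries, against 2.54% of all 22290 such genes. A gene without reads in those 6 libraries reaches 20 reads only through the other groups, so these counts are a description. Some of these genes lie within the span of AC010745.2, and with the strand setting unknown their reads may not be separate.

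**Figure D3:**
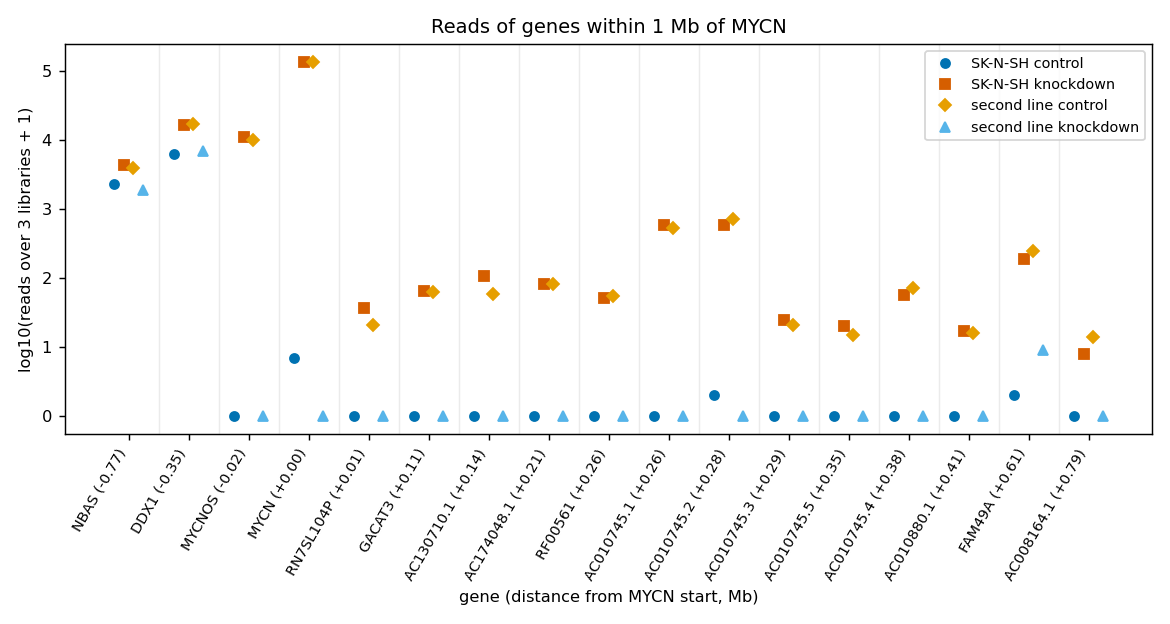
Reads summed over the 3 libraries of each group, as log10(reads + 1), for the 17 genes within 1 Mb of MYCN with at least 20 reads, in chromosomal order with the distance of their left ends from that of MYCN in Mb. From MYCNOS to AC008164.1 the points of SK-N-SH control and second line knockdown lie at or near 0, while NBAS and DDX1 on the left have reads in all groups.

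Several of these transcripts are long intergenic RNAs without a described role. AC010745.1 (16202430 to 16204226, plus strand, 262 kb from MYCN) stood at 18.1 ± 4.91 FPKM in SK-N-SH knockdown and 16.4 ± 2.50 in second line control, at least 216-fold and 185-fold above the groups without reads. AC010745.2 (16224047 to 16333978, plus strand) stood at 2.88 ± 0.332 and 3.52 ± 0.301 FPKM and had 588 and 717 reads, against 1 and 0 in the other groups. AC010745.4, on the opposite strand within the span of AC010745.2, had 55 and 72 reads against 0 and 0, and AC130710.1 had 106 and 57 against 0 and 0. GACAT3, which starts 110 kb from MYCN and was under the filter, had 63 and 62 reads against 0 and 0. The snoRNA gene RF00561 (51 and 54 reads) and the processed pseudogene AC174048.1 (82 and 80 reads) were read in the same groups alone. Both kinds of gene have relatives elsewhere in the genome, so their counts are uncertain.

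A ratio of means of at least 10 in both lines was sought in the direction of MYCN, with 3 reads over the group in place of 0 and without a filter on FPKM. It was found for 10 of the 17 genes within 1 Mb that had 20 reads, MYCN itself being among the 10, and for 5.82% of all 22290 such genes. Genes silent in 2 groups meet the limit of 20 reads through the high groups alone, so these counts are a description. From 1 to 5 Mb such a ratio was found for 4 of 39 (10.3%), from 5 to 15 Mb for 15 of 172 (8.72%), and on the rest of chromosome 2 for 78 of 1285 (6.07%). Of the members with 20 reads 3 of 8 had it, MYCNOS, FAM49A and VSNL1. Among genes tested with limma, 15 of the 25 from 1 to 5 Mb moved in the direction of MYCN in both lines, and 74 of 126 from 5 to 15 Mb, 404 of 882 on the rest of chromosome 2 and 34.1% of genes on other chromosomes did so. Outside the stretch beside MYCN, the only tested gene within 5 Mb that was near on/off, other than VSNL1, was GREB1. It encodes a coregulator of hormone receptors, lies 4.46 Mb before MYCN, and stood at 9.24 ± 0.492 FPKM in SK-N-SH knockdown and 0.0777 ± 0.0112 in its control. The others of the 4 of 39 were FAM84A and KCNS3, under the filter on FPKM. FAM84A, which starts 1.31 Mb before MYCN, had 75 reads in SK-N-SH knockdown and 102 in second line control, against 0 in SK-N-SH control and 3 in second line knockdown. KCNS3, which starts 1.94 Mb after MYCN, had 37 and 36 against 0 and 0.

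Between the 2 groups with high MYCN, 6 of the 7 tested members did not differ past the threshold (5.39% of all genes did). The log2 differences, SK-N-SH knockdown minus second line control, were -0.06 for DDX1 (SE 0.05), 0.11 for NBAS (SE 0.06), 0.12 for MYCNOS (SE 0.09), -0.06 for SMC6 (SE 0.06), -0.05 for GEN1 (SE 0.06) and -0.36 for TRIB2 (SE 0.11, limma adjusted p = 0.0865). TRIB2 passed in 5 of the other settings, as listed in the closing section. Between the 2 groups with little or no MYCN 44.1% of all genes passed, 26.9% higher in second line knockdown and 17.2% lower, and 3 of 7 members did. Here TRIB2 was 2.76-fold lower in second line knockdown than in SK-N-SH control (adjusted p = 8.32e-06). DDX1 was 1.15-fold higher (adjusted p = 0.0120), which did not pass with limma-voom on reads (adjusted p = 0.213), without SK-N-SH control replicate 3 (adjusted p = 0.0533) or without second line knockdown replicate 3 (adjusted p = 0.0502). NBAS was 1.15-fold lower (adjusted p = 0.0349) and lost its call without any 1 of 5 of the 6 libraries compared (adjusted p up to 0.112), with no filter on low values (0.0569) and with only the groups compared (0.0777). VSNL1 was 5.54-fold lower by ratio of means, on 6 reads against 35, but did not pass on the log2(FPKM + 1) scale (adjusted p = 0.0806) and passed with a pseudocount of 0.1 (adjusted p = 0.00199), with only the groups compared (0.0472) and with limma-voom on reads (0.00456). SMC6 and GEN1 did not pass (log2 differences 0.01 and 0.10, adjusted p = 0.957 and 0.199). Between the control groups all 7 tested members were higher in the second line (79.6% of all genes passed, 40.7% higher and 38.9% lower), from 1.64-fold for TRIB2 to 48.4-fold for VSNL1 and at least 3772-fold for MYCNOS. These comparisons share libraries with those above and are not independent of them.

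The protein partners and relatives of the members, encoded elsewhere in the genome, moved to different extents. The shares of all genes tested to set beside each count are 40.7% higher and 39.0% lower in SK-N-SH knockdown, and 39.9% higher and 40.2% lower in second line knockdown. Of the 6 listed partners of DDX1 in the tRNA ligase complex 4 were higher in SK-N-SH knockdown and 0 lower, with the ligase RTCB 1.75-fold and FAM98B 1.76-fold higher. Of the same 6, 4 were lower and 2 higher in second line knockdown. The list's median log2 difference was 0.41 in SK-N-SH and -0.40 in the second line, against 0.02 and -0.02 for all genes tested, and DDX1 itself exceeded each of its partners in both lines. Partners of NBAS were divided, with 3 of 6 higher in SK-N-SH knockdown and 3 lower (median 0.04), and 3 higher and 2 lower in second line knockdown (median 0.18). The tether subunit ZW10 was 2.16-fold higher, close to NBAS, and the SNARE gene USE1 stood at 4.47 ± 0.173 against 9.37 ± 0.578 FPKM.

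Of 8 partners of SMC6 in the SMC5/6 complex 5 were higher in SK-N-SH knockdown and 1 lower (median 0.43). In second line knockdown 4 of the 8 were lower and 0 higher (median -0.14), a share of lower genes near that of all genes. The subunit genes NSMCE4A (17.5 ± 0.915 against 4.96 ± 0.474 FPKM) and EID3 (1.63 ± 0.269 against 0.388 ± 0.147) exceeded SMC6 in ratio, and SMC5, which pairs with SMC6, was at 8.54 against 7.58. Of 7 enzymes that act on Holliday junctions with or beside GEN1 6 were higher in SK-N-SH knockdown and 6 lower in second line knockdown (medians 1.0 and -0.84). The helicase BLM was 5.15-fold and RMI1 3.39-fold higher in SK-N-SH knockdown, on chromosomes 15 and 9. Of the 4 tested relatives and partners of TRIB2 2 were higher and 1 lower in SK-N-SH knockdown, with TRIB1 10.7-fold and the transcription factor CEBPB 2.15-fold higher. In second line knockdown 2 of the 4 were higher and 2 lower, TRIB1 and CEBPB being the lower ones. Of 4 tested relatives of VSNL1 3 were higher and 1 lower, with the neuronal calcium sensor HPCAL4 at 0.734 ± 0.147 against 0.0251 ± 0.00628 FPKM and NCS1 1.52-fold higher. In second line knockdown 1 of the 4 was higher and 2 were lower, and NCS1 stood at 42.6 ± 4.18 against 38.0 ± 1.34 FPKM (limma adjusted p = 0.103). Of 11 genes of the RAC1 and WAVE pathway and the paralog FAM49B, listed for FAM49A, 4 were higher and 5 lower in SK-N-SH knockdown, and 6 higher and 5 lower in the second line, with WASF1 2.01-fold higher in SK-N-SH knockdown and the WAVE subunit BRK1 there at 56.6 ± 3.63 against 128 ± 6.20 FPKM.

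**Figure D4:**
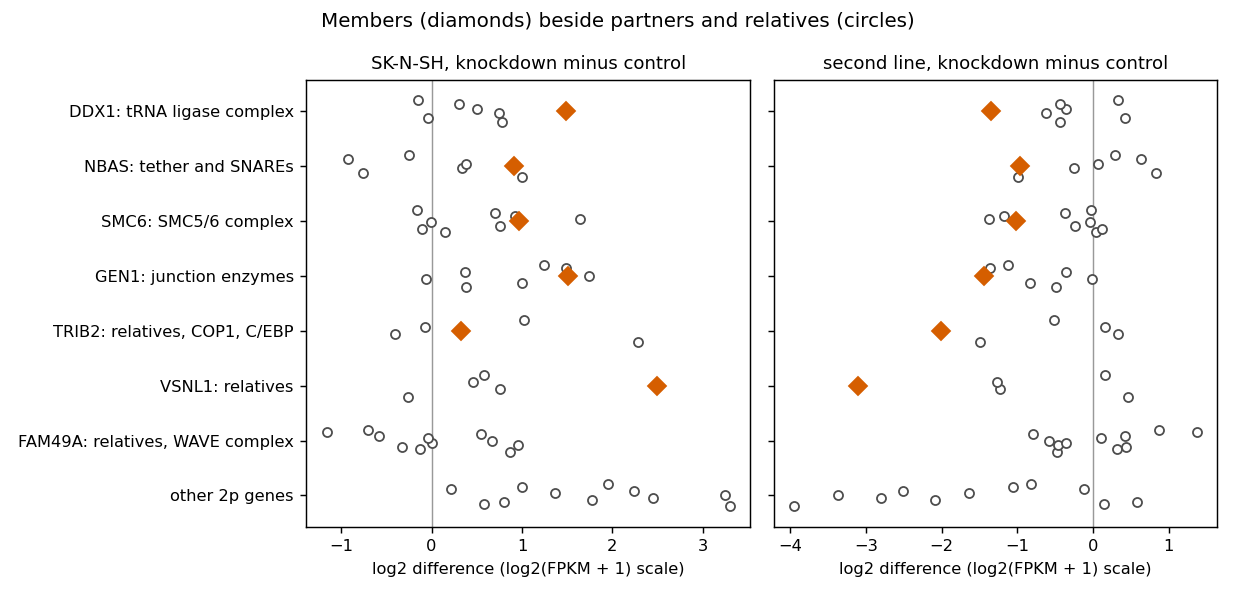
Log2 differences, knockdown minus control on the log2(FPKM + 1) scale, of listed partners and relatives (circles) and of the member they belong to (diamond; FAM49A was under the filter and has none), in SK-N-SH (left) and the second line (right). DDX1 and VSNL1 lie beyond all their listed partners and relatives in both panels, while GEN1, SMC6 and NBAS lie among theirs in SK-N-SH.

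Of 11 other genes of 2p listed for their place in neuroblastoma all 11 were higher in SK-N-SH knockdown (40.7% of all genes were), and in second line knockdown 8 were lower, 1 was higher and 2 did not pass. The receptor kinase gene ALK was at 9.45 ± 0.573 FPKM in SK-N-SH knockdown and 0.0604 ± 0.00436 in its control, and at 14.7 ± 0.746 in second line control against 0.0178 ± 0.0114 in second line knockdown. ID2, a helix-loop-helix inhibitor, was the gene higher in second line knockdown, at 53.2 against 35.4 FPKM. The list was chosen with earlier results of these data known.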

How the data were processed

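RNA of 12 neuroblastoma libraries was measured, in 4 groups of 3 taken from the sample titles. The library kit was NEBNext Ultra, per the labels' protocols. HISAT2 2.0.5 and featureCounts 1.5.0-p3 are named with the build mm10, per the submitters' processing notes. The authors deposited FPKM per gene and library with gene length, symbol and coordinates. The start and end of all 58735 genes equal GENCODE release 29 on GRCh38, so that build is used and mm10 is not. Whole reads came from FPKM multiplied by gene length, with 100% of values within 0.05 reads of a whole number. The FPKM denominator was in proportion to median-of-ratios size factors, so levels are relative to that scaling. Floors and intervals (95%, exact) cover counting error only.

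log2(FPKM + 1) was fitted with limma 3.58.1 in R 4.3.3 for genes with a mean of at least 0.5 FPKM (15856 genes), with 4 group means over 12 libraries, an intensity trend and two-sided Benjamini-Hochberg adjustment over all genes tested (threshold 0.05). The steps were tested on simulated data. A fold is a ratio of group mean FPKM, and log2 differences understate the change of low genes. The members, lists and tests were chosen with earlier results of these data known. Named are all members, MYCN, TSPYL5, tested genes within 5 Mb near on/off in both lines, the 5 genes most like MYCN and the 2 most like each member. Up to 2 called genes per list with the largest difference in SK-N-SH are named too. GACAT3, FAM84A, KCNS3, SMC5, ID2, the named cell type markers and the genes of the closing section were chosen after their values were seen. Replicate pairs differed beyond sampling noise (chi-square per degree of freedom 3.33 to 18.7), so none was counted as a duplicate. Alternatives were another pseudocount, other filters, centring, fits of the compared groups alone, a replicate block, limma-voom on recovered reads and leaving out each library. 1 marker gene is not reported here and was left out of its list.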

Additional observations from a re-analysis of the deposited data

Results flagged for a closer look

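Knockdown effects of the lines were compared directly with limma, and 84.9% of all genes tested differed. So did all 7 tested members, since they were higher with the knockdown label in SK-N-SH and lower with it in the second line. The second line effect minus the SK-N-SH effect, on the log2(FPKM + 1) scale, was -12.90 for MYCNOS and -5.60 for VSNL1, the near on/off members. It was -2.95 for GEN1, -2.83 for DDX1, -2.34 for TRIB2, -1.98 for SMC6 and -1.87 for NBAS. The direction of the SK-N-SH effects rests on labels that TSPYL5 goes against in that line.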

How the results depend on the processing

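The 7 tested members kept the direction of MYCN and their calls in both lines under every setting run, except TRIB2 in SK-N-SH as given above; 8 were called with no filter on low values, FAM49A being the addition. MYCNOS and VSNL1 were near on/off in every setting, and 3 members were with no filter. The ratio of mean FPKM in that definition does not depend on the pseudocount, filter or model, so there only the calls could change. With a library left out the ratio of VSNL1 was 28.3 at the lowest in SK-N-SH and 217 in the second line. With a minimum mean of 2 FPKM only 7 genes within 1 Mb were tested and had the pattern of MYCN, in place of 12, and both counts include MYCN. The count of members that differed between the high-MYCN groups was 0 with a pseudocount of 0.1, 2 with only the groups compared and with limma-voom on reads, and 1 to 2 when a library was left out, the added member being TRIB2 (adjusted p = 0.00910 with the groups compared alone, 0.0277 with limma-voom, 0.0418 without SK-N-SH control replicate 1, 0.0309 without second line knockdown replicate 1). In that comparison 474 to 991 genes passed when a library was left out, against 854. Between the low-MYCN groups 1 to 3 members passed when a library was left out. SMC6 changed sign there, from 0.006891 to -0.006857 with libraries centred, -0.1004 with limma-voom and -0.05724 to 0.06238 when a library was left out, with no adjusted p under the threshold. MYCN between the high groups ran from -0.0559 to 0.01017 when a library was left out. The cause of these changes was not tested. The paired fit with a replicate block gave 2 members between the high-MYCN groups (TRIB2 adjusted p = 0.0399) and changed no other call of a member. Same-numbered libraries deviated together with r of -0.08 to 0.10, so the numbers do not pair the libraries. Depth limits MYCNUT and the low groups of FAM49A and VSNL1, which rest on 0 to 35 reads a group.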

Other observations

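Some genes near MYCN went against it. OSR1 is a zinc finger gene of embryonic mesoderm whose left end lies 3.41 Mb after MYCN. It stood at 17.5 ± 1.0 FPKM in the SK-N-SH controls and 13.5 ± 0.668 in second line knockdown. In SK-N-SH knockdown it was at 0.0451 ± 0.0139 FPKM, and in second line control at 0.0148 ± 0.00626. PQLC3, which starts 4.79 Mb before MYCN, stood at 7.46 ± 0.640 FPKM in the SK-N-SH controls and 9.01 ± 1.37 in second line knockdown, against 0.773 ± 0.123 and 0.639 ± 0.167 in the other groups. From 1 to 5 Mb 5 of the 25 tested genes moved against MYCN in both lines, by limma with Benjamini-Hochberg adjustment. So did 15 of 126 from 5 to 15 Mb, 235 of 882 on the rest of chromosome 2 and 5172 of 14811 on other chromosomes. Genes that went against MYCN were thus not more frequent near it than on other chromosomes. Within 1 Mb 0 of 12 did so, MYCN itself being among the 12. Genes silent in the low-MYCN groups pass the filter only through the high groups, so that count is a description.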
